A study of Homo sapiens with 6 samples.

Results

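The mitosis and spindle genes are 46 genes listed by function. The rule uses no measured value, but the list was chosen with earlier results of these data known. The genes were found by symbol in deposited tables that hold 92866 mRNA transcripts and 19871 symbols. All 46 were present, with 250 transcripts between them. The values come from lncRNA-sequencing of HCT116 cells, an established human colorectal carcinoma line, in 3 groups of 2 libraries each. NC is the negative control, GAS5 received a plasmid carrying the long noncoding RNA GAS5, and siYAP received siRNA against YAP, a transcriptional coactivator of the Hippo pathway that acts with TEAD factors. Per the labels, a plasmid or an siRNA was transfected, and the labels list all 3 groups under siRNA. What NC received, which YAP siRNA was used and how long cells were kept after transfection are not given in the sources used here. Every group is the same cell line grown in McCoy's 5a medium with serum, and nothing in the labels says that the libraries came from separate cultures. The deposited files give 1 value per group, the mean that the authors took of its libraries, so no result that follows has an SD or a test between replicates.

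Mitosis is driven by CDK1 bound to cyclins A and B, which CDC25 phosphatases switch on. Chromosomes attach to spindle microtubules through kinetochores built on centromeres, and the spindle checkpoint holds back the anaphase-promoting complex until attachment is complete. Separase then cuts cohesin, the midzone forms between the separating chromosomes, and cytokinesis divides the cell. The genes for this machinery are transcribed mainly in G2 and M phase. The DREAM and MYBL2-MuvB complexes and FOXM1 act at their promoters, often through a short sequence called the cell cycle genes homology region (CHR) and through CCAAT boxes, which NF-Y binds. Their mRNA levels in a growing culture therefore follow, in part, the share of cells in G2 and M.

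Promoter sequences are shown for 9 of these genes because the promoters carry the sequence feature that the genes share. KIF20A, BUB1B, KIF11, PRC1 and KIF23 were among the genes with the lower values in siYAP, and CCNB2 and PLK1 differed less. The choice followed no rule. CENPF, CENPE and ASPM, also low in siYAP and with a CHR found, are not shown. Nor are NEK2, BUB1 and CCNA2, low in siYAP with no CHR found. CKAP2 and AURKB are shown as listed promoters in which neither searched form of the CHR was found. In the AURKB window an ATG comes almost directly after the listed start. That window may therefore lie within the gene, and it does not show that the AURKB promoter lacks a CHR. Whether the listed start is the start used in these cells was not examined. Each sequence runs 5′ to 3′ on the strand of the gene, from 100 bases before the RefSeq start to 20 bases after it (RefSeq, GRCh38.p14). Capitals mark a CHR (TTTGAA or TTTAAA) or a CCAAT box (CCAAT) on either strand, so that TTCAAA and ATTGG are the reverse strand forms. TTTAAA reads the same on both strands.
KIF20A promoter: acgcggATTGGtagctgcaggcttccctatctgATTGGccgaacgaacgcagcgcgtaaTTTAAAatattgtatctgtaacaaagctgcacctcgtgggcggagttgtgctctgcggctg
BUB1B promoter: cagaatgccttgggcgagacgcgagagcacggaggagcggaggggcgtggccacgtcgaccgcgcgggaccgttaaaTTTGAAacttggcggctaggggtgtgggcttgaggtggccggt
KIF11 promoter: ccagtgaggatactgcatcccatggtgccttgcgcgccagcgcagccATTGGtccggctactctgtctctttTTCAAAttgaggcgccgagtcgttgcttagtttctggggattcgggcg
PRC1 promoter: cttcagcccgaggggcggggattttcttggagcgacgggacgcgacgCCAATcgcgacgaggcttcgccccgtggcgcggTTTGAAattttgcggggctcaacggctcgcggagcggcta
KIF23 promoter: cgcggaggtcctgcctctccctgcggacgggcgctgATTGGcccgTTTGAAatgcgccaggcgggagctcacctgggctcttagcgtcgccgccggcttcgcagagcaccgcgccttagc
CCNB2 promoter: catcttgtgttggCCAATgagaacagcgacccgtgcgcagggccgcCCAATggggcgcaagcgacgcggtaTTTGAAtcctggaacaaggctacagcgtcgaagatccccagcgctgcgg
PLK1 promoter: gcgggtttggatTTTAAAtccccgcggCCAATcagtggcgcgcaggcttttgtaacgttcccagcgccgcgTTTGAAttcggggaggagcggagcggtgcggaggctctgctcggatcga
CKAP2 promoter: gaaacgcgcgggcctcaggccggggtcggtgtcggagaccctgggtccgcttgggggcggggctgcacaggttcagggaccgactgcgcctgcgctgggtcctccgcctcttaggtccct
AURKB promoter: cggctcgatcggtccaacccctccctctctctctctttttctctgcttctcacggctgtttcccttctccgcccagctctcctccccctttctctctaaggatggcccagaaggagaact
The windows lie at KIF20A chr5:138179012-138179131 (plus strand), BUB1B chr15:40160969-40161088 (plus strand), KIF11 chr10:92593030-92593149 (plus strand), PRC1 chr15:90994516-90994635 (minus strand), KIF23 chr15:69414249-69414368 (plus strand), CCNB2 chr15:59105046-59105165 (plus strand), PLK1 chr16:23678789-23678908 (plus strand), CKAP2 chr13:52455888-52456007 (plus strand) and AURKB chr17:8210206-8210325 (minus strand).

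In the printed windows, the CHR nearest the start lay 41 bases before it in KIF20A, 23 in BUB1B, 28 in KIF11, 20 in PRC1, 55 in KIF23, 29 in CCNB2 and 29 in PLK1. The distance from CCAAT box to CHR was 26 bases in KIF20A, 25 in KIF11 and 25 in CCNB2. It was 33 in PRC1, 44 in PLK1 and 9 in KIF23, and the BUB1B window has a CHR and no CCAAT box.

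A RefSeq promoter of 300 bases (250 before the start and 50 after it) was found for 39 of the 46 genes, with 49 promoters in all. BIRC5, AURKA, FOXM1, TPX2, BUB3, UBE2C and TTK had no entry. A CHR was present in 34 of the 39 genes (87.2%), against 20.7% of the 9295 expressed genes with a promoter. A CCAAT box was present in 32 (82.1%), against 43.4%. Both motifs stood in the same promoter in 27 genes (69.2%), against 8.86%. Within the last 100 bases before the start, a window chosen after the positions had been seen, 26 genes (66.7%) had a CHR, against 7.19%. The E2F forms TTTGGCGC and TTTCGCGC were found in 2 genes (5.13%, against 2.51%). The TEAD sequence GGAATG was found in 7 genes (17.9%), against 14.6%. Over the promoters of all 27305 genes with an entry, the shares were 27.9% for CHR, 39.7% for CCAAT, 1.40% for E2F and 16.7% for TEAD. A motif match describes the letters in the window and shows no binding.

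The values in siYAP were also set beside the motifs. The 34 genes with a CHR had a median log2 fold change of -0.59 against NC. The 5 with neither searched form (BUB1, NEK2, CCNA2, CKAP2 and AURKB) had a median of -0.66. Other forms of the CHR and other start sites were not searched, so a gene of the second group may hold a CHR. For AURKB the listed start may lie within the gene. The 7 genes with the TEAD sequence had a median of -0.58 and the 32 without it a median of -0.60. These medians are descriptions with no test.

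Depth was similar between the groups, with totals of 27206123 (NC), 25521577 (GAS5) and 26298036 (siYAP) mean counts. Of the symbols, 11907 had a mean of at least 50 counts over the 3 groups, and the mitosis and spindle genes lay well above this minimum, from 326 in SPC25 to 15050 in MKI67. Counts were scaled by the TMM method, which corrects for depth and for composition, and all levels given as scaled counts are on that scale. YAP1, the gene targeted by the siRNA, had 3308 (NC), 2768 (GAS5) and 1473 (siYAP) scaled counts (log2 fold change -1.17 in siYAP and -0.26 in GAS5). The YAP targets CTGF and CYR61 were not lower in siYAP (log2 fold change 0.18 and 0.30), and were higher in GAS5 (0.72 and 1.09). CTGF, which lay close to the minimum, had 75.6 (NC), 126 (GAS5) and 85.7 (siYAP) scaled counts. CYR61 had 513, 1093 and 634 in the same order, and no counting interval is given for either gene. GAS5 itself is a noncoding RNA and is not analysed here. For the epithelial identity of the line, 7 of 9 colorectal epithelium markers were over the minimum, with VIL1 and LGALS4 near 0. Of the markers of leukocytes, fibroblasts and endothelium, 0 of 4, 1 of 4 (COL1A1) and 0 of 3 were over it.

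The mitosis and spindle genes were lower in siYAP than in NC almost throughout. Of the 46 genes, 45 had a log2 fold change below 0, against 48.6% of all 11907 genes. A difference of at least 0.5 on the log2 scale (a ratio of 1.41) is called past the fold, and 25 genes were lower past it, against 6.11% of all genes, while 0 were higher past it, against 5.30%. Their median log2 fold change was -0.56, with quartiles of -0.69 and -0.35 and a range from -1.02 to 0.06. The median of all genes was 0.01. CENPF alone was lower by at least 1 on the log2 scale, against 0.445% of all genes. With 95% exact binomial intervals for counting error alone, 42 genes were lower and CDC25B was higher. These intervals do not contain the spread between cultures. Their median width was 0.12, while the quartiles of all genes were -0.20 and 0.22. The share of all genes whose interval excludes 0 is not given here, so these counts do not set the 46 genes apart. In bulk RNA, fewer dividing cells and less of these mRNAs per cell cannot be told apart.

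**Figure D1:**
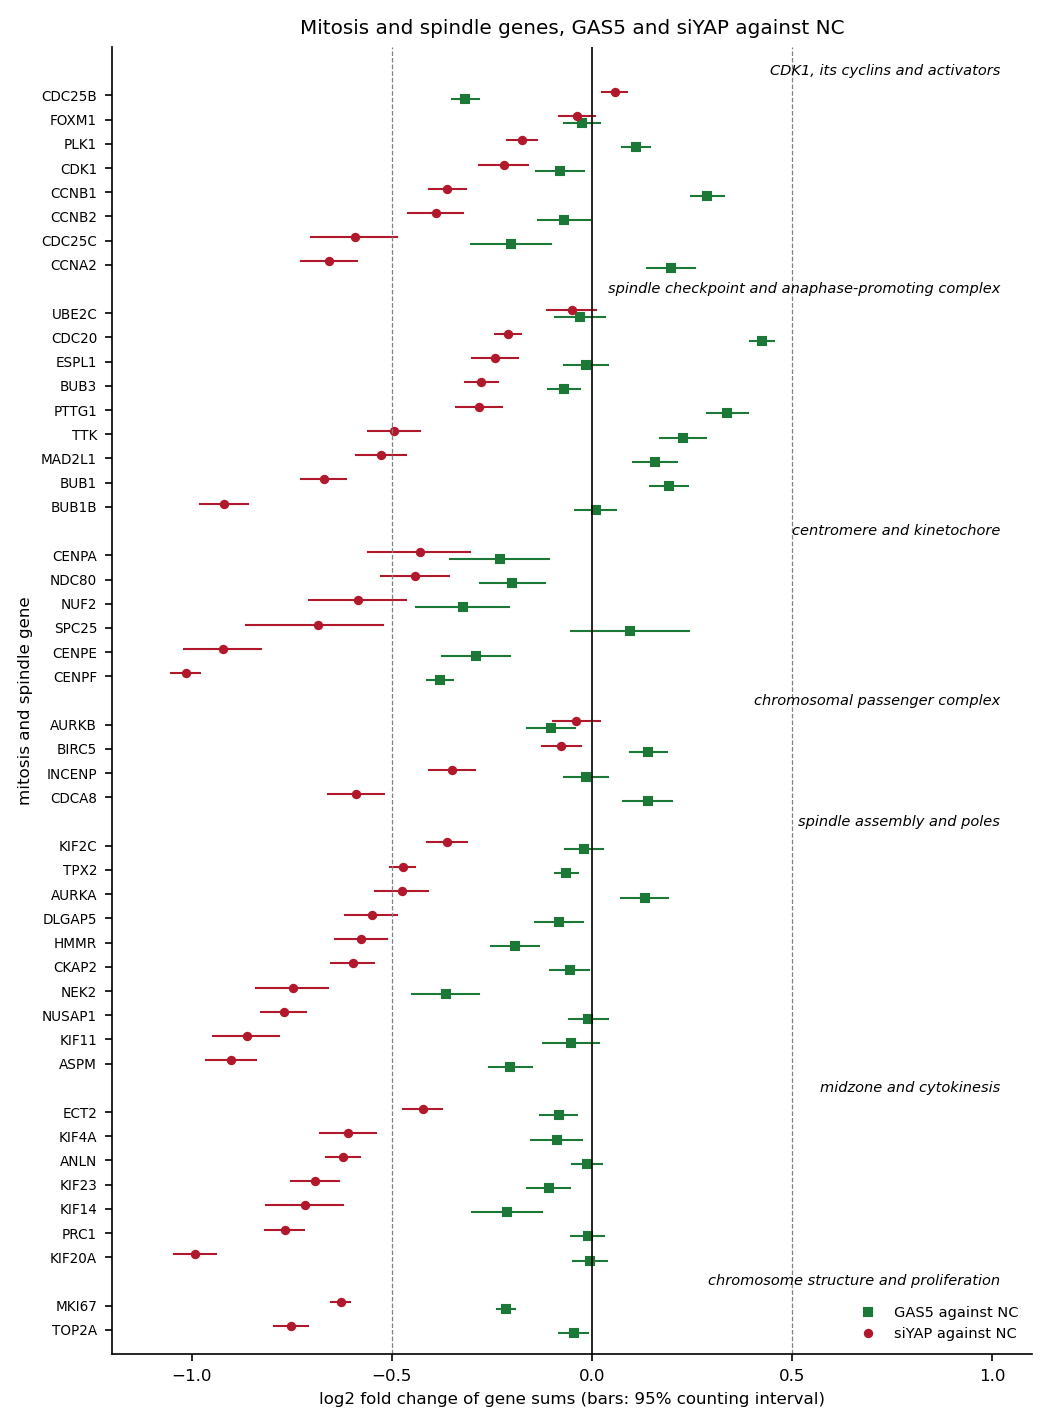
Log2 fold change of the 46 genes (x axis) in siYAP (red circles) and GAS5 (green squares) against NC, grouped by role. Horizontal bars are 95% counting intervals and dashed lines mark 0.5 in either direction; 25 red circles lie at or beyond -0.5, and no green square reaches either dashed line.

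The 46 genes together took 0.647% (NC), 0.622% (GAS5) and 0.447% (siYAP) of the mean counts assigned to a symbol. Their median summed FPKM, a level per transcript length, was 38.1 (NC), 39.1 (GAS5) and 22.3 (siYAP). In scaled counts, siYAP was the lowest of the 3 groups in 44 genes, the exceptions being AURKB and CDC25B. The order of scaled counts from high to low was NC, GAS5, siYAP in 31 genes and GAS5, NC, siYAP in 13.

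**Figure D2:**
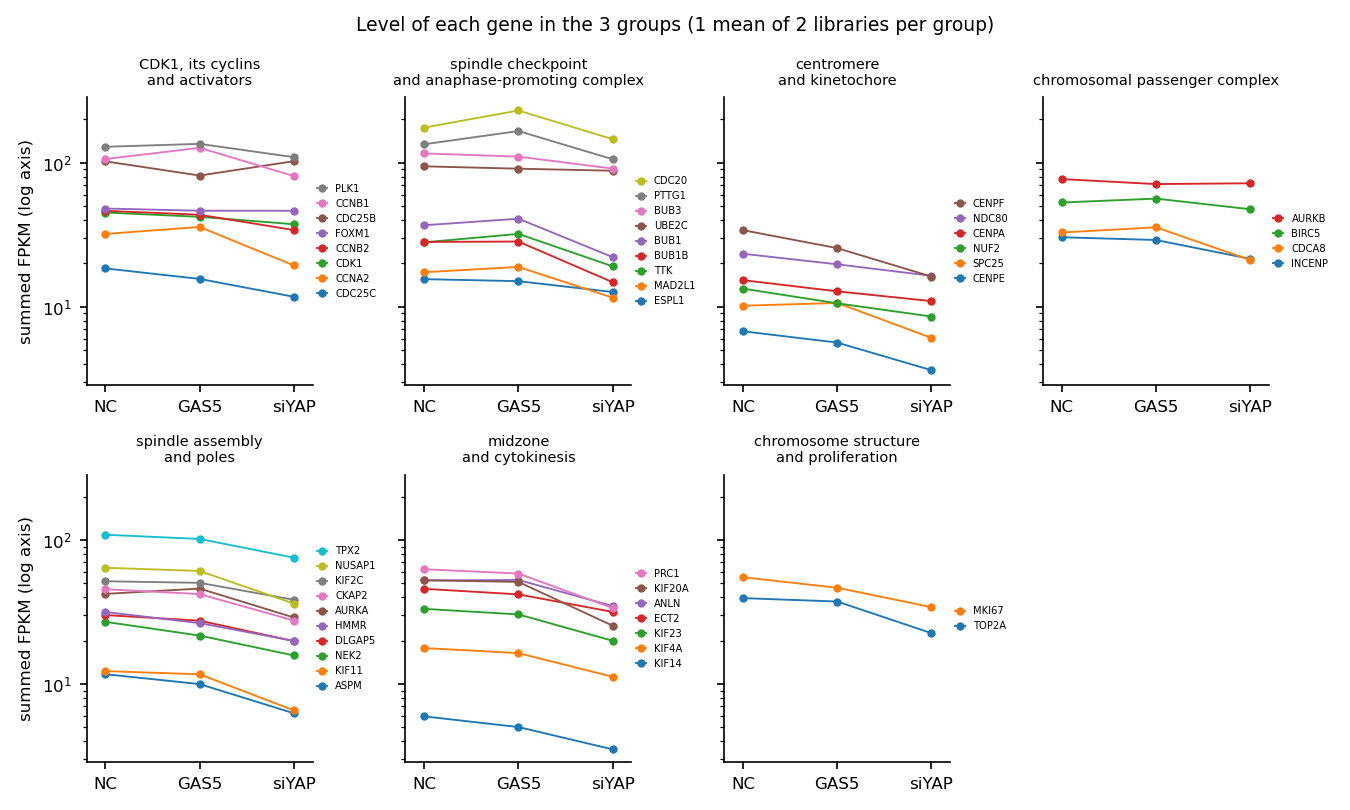
Summed FPKM (log axis) of each gene in NC, GAS5 and siYAP, in 1 panel per role, with each point the mean of 2 libraries. In most panels the lines run nearly level from NC to GAS5 and drop to siYAP; the highest level in NC is CDC20 at 176 and the lowest is KIF14 at 5.96.

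In NC, the highest FPKM levels were those of CDC20 (176), PTTG1 (134), PLK1 (129), BUB3 (116), TPX2 (109) and CCNB1 (106). The lowest were those of KIF14 (5.96), CENPE (6.75), SPC25 (10.2) and ASPM (11.7). CDC20 activates the anaphase-promoting complex, and PTTG1 encodes securin, the inhibitor of separase that this complex destroys.

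Among the 8 genes of CDK1, its cyclins and activators, 7 were below 0 in siYAP and 2 were lower past the fold, with a median of -0.29. For this and each following role, the shares of all genes in siYAP were 48.6% below 0 and 6.11% lower past the fold. CDK1, the kinase itself, had 2267 (NC), 2143 (GAS5) and 1946 (siYAP) scaled counts, a log2 fold change of -0.22 in siYAP (counting interval -0.28 to -0.16). CCNA2, the cyclin of S and G2 phase, had 2122, 2434 and 1345 scaled counts in the same order of groups. CCNA2 was thus the gene of this role with the lowest value in siYAP (-0.66), followed by CDC25C (-0.59). CCNB1, the main mitotic cyclin, had 4328, 5285 and 3369 scaled counts (log2 fold change -0.36 in siYAP and 0.29 in GAS5), and CCNB2 was at -0.39 in siYAP. PLK1, the kinase that promotes mitotic entry and spindle assembly, had 6309, 6809 and 5589 scaled counts, or -0.17 in siYAP. FOXM1, the transcription factor of G2 and M phase genes, was nearly level at 3886, 3821 and 3788 scaled counts, and both of its counting intervals against NC included 0. CDC25B, the phosphatase that starts CDK1 activation, was the 1 gene above 0 in siYAP, with 7581 (NC), 6089 (GAS5) and 7885 (siYAP) scaled counts (0.06, interval 0.02 to 0.09).

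Among the 9 genes of the spindle checkpoint and the anaphase-promoting complex, all were below 0 in siYAP and 3 were lower past the fold, with a median of -0.28. BUB1B, which encodes the checkpoint protein BUBR1, had 3151 (NC), 3171 (GAS5) and 1666 (siYAP) scaled counts. This was a log2 fold change of -0.92 in siYAP (interval -0.98 to -0.86) with almost no difference between GAS5 and NC (0.01). BUB1, a checkpoint kinase, had 3379, 3860 and 2123 scaled counts (-0.67 in siYAP). MAD2L1, a checkpoint protein that binds CDC20, was at -0.53, and TTK, the kinase MPS1, lay just short of the fold at -0.49. The remaining genes were also short of the fold. CDC20 had 7786 (NC), 10462 (GAS5) and 6731 (siYAP) scaled counts (-0.21 in siYAP). PTTG1 had 2681, 3389 and 2205 (-0.28), ESPL1, the separase, was at -0.24, and BUB3 was at -0.28. UBE2C, the ubiquitin-conjugating enzyme of the complex, was nearly level at 2104, 2061 and 2031 scaled counts (-0.05).

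Among the 6 centromere and kinetochore genes, all were below 0 in siYAP and 4 were lower past the fold, with a median of -0.63. CENPF, a large kinetochore protein made in G2, had 9233 (NC), 7096 (GAS5) and 4566 (siYAP) scaled counts, which is the largest difference of the 46 genes (log2 fold change -1.02, interval -1.05 to -0.98). CENPE, the kinetochore motor, had 1266, 1036 and 667 scaled counts (-0.92, interval -1.02 to -0.83). SPC25, NUF2 and NDC80 encode subunits of the NDC80 complex, which holds microtubule ends. They were at -0.69, -0.58 and -0.44 in siYAP, and SPC25, the gene with the fewest counts, had the widest interval (-0.86 to -0.52). CENPA, the histone variant of centromeres, had 582, 496 and 431 scaled counts (-0.43).

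The chromosomal passenger complex corrects faulty attachments, and its 4 genes did not have one common value. CDCA8, which encodes borealin, was lower past the fold in siYAP (-0.59), and INCENP, the scaffold, was at -0.35. BIRC5, which encodes survivin, had 3545 (NC), 3910 (GAS5) and 3362 (siYAP) scaled counts (-0.08). AURKB, the kinase of the complex, had 2320, 2160 and 2258 scaled counts (-0.04, interval -0.10 to 0.02), and that interval includes 0.

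Among the 10 genes of spindle assembly and poles, all were below 0 in siYAP and 7 were lower past the fold, with a median of -0.59. ASPM, a protein of spindle poles, had 2965 (NC), 2574 (GAS5) and 1586 (siYAP) scaled counts (-0.90, interval -0.97 to -0.84). KIF11, the motor that pushes the poles apart, had 1650, 1592 and 907 scaled counts (-0.86, interval -0.95 to -0.78). NUSAP1, a microtubule-bundling protein, was at -0.77 and NEK2, a centrosome kinase, was at -0.75. CKAP2, HMMR and DLGAP5, which bind spindle microtubules, were at -0.60, -0.58 and -0.55. AURKA, the kinase of spindle poles, had 2209, 2421 and 1588 scaled counts (-0.48), its activator TPX2 was at -0.47, and KIF2C, a microtubule depolymerase, was at -0.36.

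Among the 7 midzone and cytokinesis genes, all were below 0 in siYAP and 6 were lower past the fold, with the lowest median of the roles with more than 2 genes (-0.69). KIF20A, a motor of the midzone, had 4425 (NC), 4410 (GAS5) and 2225 (siYAP) scaled counts (-0.99, interval -1.04 to -0.94), and GAS5 was level with NC. PRC1, which bundles the microtubules of the midzone, had 4586, 4552 and 2694 scaled counts (-0.77). KIF14 and KIF23, motors of the midbody, were at -0.72 and -0.69, ANLN, a protein of the contractile ring, was at -0.62, and KIF4A was at -0.61. ECT2, which activates the GTPase of the contractile ring, was short of the fold at -0.42.

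TOP2A, the topoisomerase that untangles chromosomes, had 5984 (NC), 5797 (GAS5) and 3550 (siYAP) scaled counts (-0.75). MKI67, which encodes the proliferation marker Ki67, had the most counts of the 46 genes, with 17913, 15443 and 11590 (-0.63 in siYAP and -0.21 in GAS5). Both were lower past the fold in siYAP.

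In the GAS5 group, 0 of the 46 genes passed the fold in either direction, against 3.27% of all genes lower and 3.76% higher. The median log2 fold change was -0.05, with a range from -0.38 to 0.43. Of the 46, 33 were below 0, against 49.8% of all genes, and 13 were above 0. By counting error alone, 23 genes were lower and 11 were higher. The median interval was 0.11 wide, while the quartiles of all genes were -0.16 and 0.16. The share of all genes whose interval excludes 0 is not given here, so these counts do not set the 46 genes apart. CDC20 was the highest (0.43, interval 0.40 to 0.46), followed by PTTG1 (0.34), CCNB1 (0.29), TTK (0.23), CCNA2 (0.20) and BUB1 (0.19). Of these 6 genes, 4 belong to the spindle checkpoint and anaphase-promoting complex group, whose median in GAS5 was 0.16, and the other two are cyclins. CENPF was the lowest (-0.38, interval -0.41 to -0.35), followed by NEK2 (-0.37), NUF2 (-0.32), CDC25B (-0.32), CENPE (-0.29) and CENPA (-0.23). Of these, 4 are centromere and kinetochore genes, a group with a median of -0.26 in GAS5, in which SPC25 was at 0.09. NEK2 had 1314 (NC), 1020 (GAS5) and 782 (siYAP) scaled counts, and NUF2 had 682, 545 and 454. The GAS5 medians of the other roles lay between -0.13 and 0.06.

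The comparisons of GAS5 and of siYAP with NC share the NC values, so GAS5 was also set against siYAP. Of the 46 genes, 24 were higher in GAS5 than in siYAP past the fold, against 9.41% of all genes, and 0 were lower past it, against 8.90%. Only 2 were below 0, AURKB (-0.06) and CDC25B (-0.37), against 49.7% of all genes. The median was 0.51, with a range from -0.37 to 0.99. KIF20A was the highest at 0.99, followed by BUB1B (0.93), BUB1 (0.86), CCNA2 (0.85), KIF11 (0.81) and SPC25 (0.78). At the low end, FOXM1 was at 0.01, UBE2C at 0.02, CDK1 at 0.14 and CENPA at 0.20. The counting intervals of FOXM1 and UBE2C included 0.

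**Figure D3:**
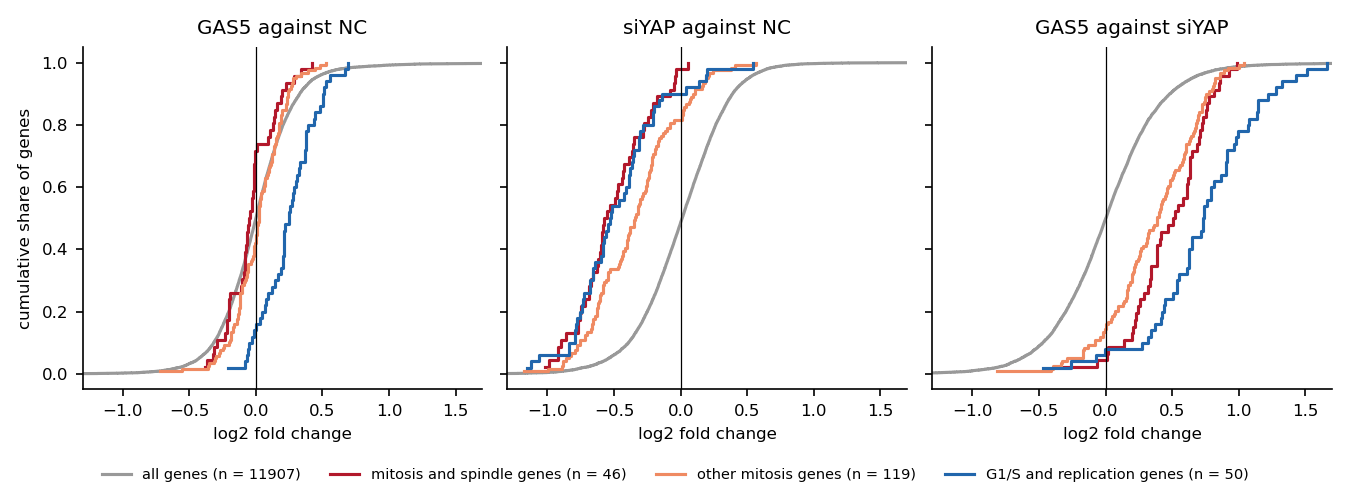
Cumulative share of genes (y axis) by log2 fold change (x axis) for the 46 mitosis and spindle genes, other mitosis genes, G1/S and replication genes and all genes, in 3 comparisons. The red curve is displaced to the left of grey in siYAP against NC (medians -0.56 and 0.01), lies near grey in GAS5 against NC, and is displaced to the right in GAS5 against siYAP.

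Other genes of mitosis, in 5 lists by function, gave 119 genes over the minimum. In siYAP, 97 of them were below 0, against 48.6% of all genes, and the median was -0.35. Past the fold, 40 were lower, against 6.11% of all genes, and 1 was higher, against 5.30%. DEPDC1 was the lowest with 2441 (NC), 1961 (GAS5) and 1077 (siYAP) scaled counts (-1.18), followed by KNL1, the kinetochore scaffold (-0.99), and KIF15, a spindle motor (-0.89). The highest were ANAPC11 (0.56), E2F5 (0.41) and ANAPC2 (0.38). The lists differed in their medians: -0.53 for condensin and cohesin genes (10 of 19 lower past the fold), -0.43 for other kinetochore and centromere genes (13 of 31) and -0.40 for other mitotic kinases, motors and cytokinesis genes (14 of 37). The anaphase-promoting complex subunits and regulators had a median of 0.02, with 1 of 19 lower past the fold (FBXO5, the inhibitor EMI1, named for this count). The DREAM and MYBL2-MuvB genes had a median of -0.22, with 2 of 13 lower past the fold (RBL1 at -0.58 and LIN54 at -0.54). In GAS5 against NC, the 119 genes had a median of 0.02. Past the fold, 1 was higher (MAD2L1BP, 0.52), against 3.76% of all genes, and 2 were lower (CCNB3, -0.72, and TFDP2, -0.55), against 3.27%. MASTL, the Greatwall kinase, and ANAPC2 followed at 0.48 and 0.44 on the high side and PRR11 at -0.36 on the low side. In GAS5 against siYAP their median was 0.39, from CCNB3 (-0.81), ANAPC16 (-0.41) and E2F5 (-0.39) to KIF20B (0.92), SGO2 (1.00) and MASTL (1.04).

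The genes of the preceding phase, 50 G1/S and replication genes, were also lower in siYAP, with a median of -0.53. Of these, 45 were below 0, against 48.6% of all genes, and 27 were lower past the fold, against 6.11%. The lowest were GINS2 (1181 (NC), 1680 (GAS5) and 530 (siYAP) scaled counts, -1.15), MCM6 (-1.13) and MCM4 (-1.06), all of the replicative helicase. CCND1, the cyclin of G1 phase, was higher in siYAP (0.54), and CDK6 and CDK4 were at 0.20 and 0.19. In GAS5 the G1/S genes stood apart in value from the mitosis and spindle genes, with a median of 0.25 against -0.05. Of the 50, 43 were above NC and 7 were below it, whereas 49.8% of all genes were below it. Past the fold, 7 were higher, against 3.76% of all genes. CDC25A (0.69), CCNE2 (0.67) and ORC6 (0.56) were the highest, and RFC4 (-0.21) and PRIM1 (-0.07) were among the lowest. The difference between these lists was not tested, since a test needs separate libraries. In GAS5 against siYAP, 38 of the 50 were higher past the fold, against 9.41% of all genes. The median was 0.73, from CCND1 (-0.47), CDK6 (-0.26) and CDK4 (-0.07) to MCM6 (1.43), MCM4 (1.51) and GINS2 (1.66).

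**Figure D4:**
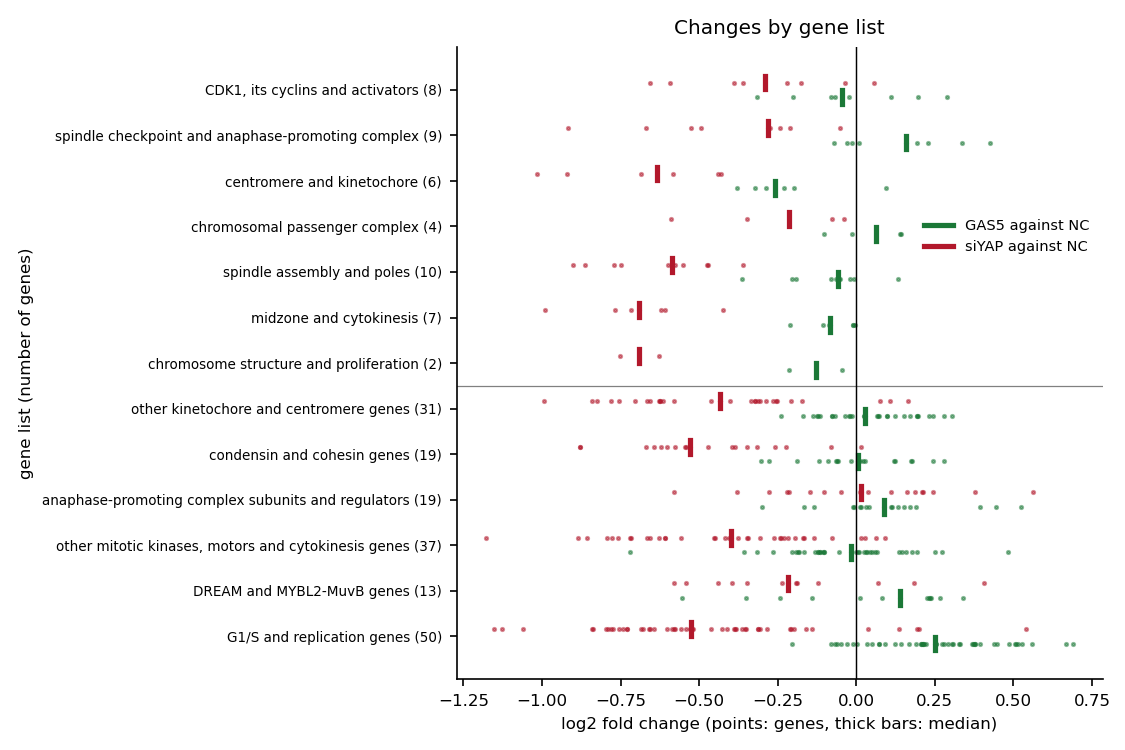
Log2 fold change (x axis) in siYAP (red) and GAS5 (green) against NC for each role of the 46 genes (above the grey line) and for the other lists (below it), with points for genes and thick bars for medians. The red median is left of 0 in every role and in every other list but the anaphase-promoting complex subunits (0.02); the green median is furthest right for the G1/S and replication genes (0.25).

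Across all 11787 genes with a GC content for their leading transcript, the siYAP fold change was higher at higher GC content (Spearman's rho 0.55), and this was weaker in GAS5 (0.19). The genes share the libraries, so rho is a description. From the lowest to the highest quintile of GC content, the siYAP median of all genes was -0.18, -0.14, -0.00, 0.14 and 0.25. The mitosis and spindle genes had medians of -0.60, -0.61, -0.43, -0.11 and -0.35 in the same quintiles, with 17, 13, 9, 6 and 1 genes, each lower than the median of all genes. Over the 46 genes rho with GC content was 0.54 in siYAP. Their rho with transcript length was -0.51, against -0.19 over all genes. The 6 genes with the highest values in siYAP (CDC25B, FOXM1, AURKB, UBE2C, BIRC5 and PLK1) had GC contents from 51.7% to 59.0%, whereas CDK1, at -0.22, had 35.6%. When the median of all genes in the same class of GC content and length was subtracted, all 46 genes were below 0 in siYAP, with a median of -0.42, and 17 were lower by at least 0.5, against 4.25% of all genes. KIF20A was then the lowest, followed by CENPF (-0.78), PRC1 (-0.77) and BUB1B (-0.77), and CDK1 was at -0.09. The siYAP median of the G1/S and replication genes was -0.53 both before and after this subtraction. That of the other mitosis genes was -0.35 before it and -0.30 after it. The 7 epithelial markers over the minimum had a median of 0.47 in siYAP (0.23 after the same subtraction), with 6 above 0 and 2 higher past the fold (CLDN4 at 0.78 and KRT19 at 0.51), and with EPCAM at -0.06. Their part in the values of the mitosis genes was not tested.

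**Figure D5:**
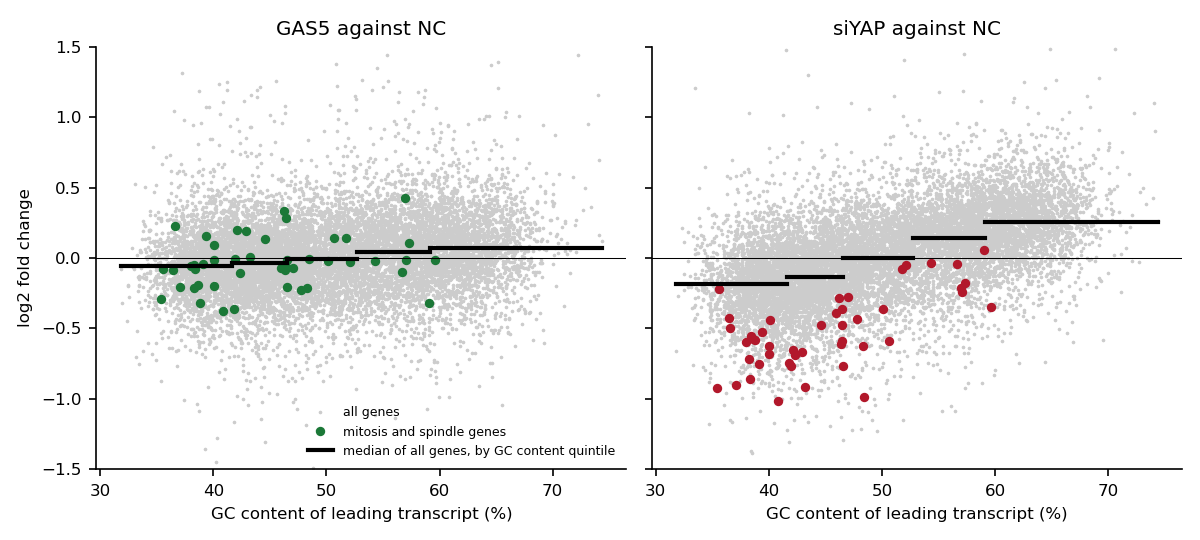
Log2 fold change (y axis, shown from -1.5 to 1.5) by GC content of the leading transcript (x axis, %) in GAS5 and in siYAP against NC, with all genes in grey, the 46 genes in colour and the median of all genes in each quintile of GC content as black bars. In siYAP the bars rise from -0.18 to 0.25, and the 46 coloured points lie below them.

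Single transcripts were described where they had at least 50 mean counts in a group, which left 130 transcripts of the 46 genes. Of these, 13 reached the minimum in 1 group alone, and a transcript kept only through the group where it is high had to differ, so these values are descriptions. In siYAP, 70 of the 130 were lower past the fold, against 18.2% of 29087 transcripts of all genes, and 6 were higher, against 15.3%. The leading transcript alone, the one with most counts, was lower past the fold in 24 of the 46 genes, against 9.37% of all genes, and below 0 in 44, against 47.1%. In 18 genes it held over 90% of the counts. The assignment of reads among overlapping transcripts is an estimate, and the low values that follow are uncertain for that reason.

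The transcripts with the largest differences in genes whose sum stayed within the fold in the same comparison follow. Among them, those of PLK1, HMMR (ENST00000358715) and ECT2 (TCONS_00100730) reached the minimum in GAS5 alone. Those of PRC1, HMMR (ENST00000432118), CCNB1 and ECT2 (ENST00000428567) reached it in NC alone, and in each case the difference was selected with the transcript. For PLK1, ENST00000567897 had 24.2 (NC) and 53.2 (GAS5) scaled counts, and siYAP was listed at 0, while the gene sum was at -0.17. For AURKA, the assembled transcript TCONS_00091428 had 143 (NC), 7.08 (GAS5) and 172 (siYAP) scaled counts (log2 fold change -4.00 in GAS5). ENST00000395911 and ENST00000347343, also of AURKA, were lower in siYAP, with 216, 135 and 45.6 scaled counts (-2.19) and with 316, 195 and 113 (-1.46). AURKA had 15 transcripts in the tables and its leading transcript held 32.7% of its counts.

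For HMMR, ENST00000358715 had 8.17 (NC), 63.0 (GAS5) and 40.5 (siYAP) scaled counts (2.68 in GAS5), while ENST00000432118 had 156, 40.7 and 18.7 (-1.88). For PRC1, ENST00000559828 had 80.6, 10.2 and 5.20 scaled counts (-2.76 in GAS5). KIF14 (TCONS_00011945) had 177 (NC), 59.8 (GAS5) and 22.9 (siYAP) scaled counts, or -1.54 in GAS5. CENPE (ENST00000265148) had 264, 97.8 and 74.3 in the same order (-1.41). In siYAP, transcripts of CCNB1 (ENST00000508407, -1.31), INCENP (ENST00000533896, -1.25) and ECT2 (ENST00000428567, -1.21) had between 47.6 and 71.0 scaled counts in NC. In GAS5 against siYAP, the further transcripts were those of INCENP (ENST00000533896, 1.12), HMMR (ENST00000432118, 1.04), AURKB (ENST00000581511, 0.94), MKI67 (ENST00000368653, 0.83) and ECT2 (TCONS_00100730, 0.82). The MKI67 transcript was the most abundant of these, with 4461 (NC), 4325 (GAS5) and 2426 (siYAP) scaled counts.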

How the data were processed

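RNA of HCT116 cells was sequenced in 3 groups of 2 libraries, as strand-specific libraries. The deposited expected counts are estimated counts per mRNA transcript, which the authors averaged within each group and did not normalize further. The deposited FPKM values were scaled by the authors for transcript length and library size and averaged the same way, with 0 written as 0.001. The submitters' processing notes name TopHat2 2.1.1, and the counting tool, genome build and annotation are not given in the sources used here. The tables also hold the authors' own comparisons, as log2 fold changes per transcript and as a p-value with an adjusted p-value (FDR), deposited columns that were not used.

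Transcripts of the 2 tables were joined by identifier, and counts and FPKM were summed by symbol, leaving out 339 transcripts with no symbol. The 3 group sums were scaled together with TMM (edgeR 4.0.16, R 4.3.3), log2 fold changes were taken with a prior count of 2, and genes needed a mean of 50 counts. Intervals, sums and plots were made in Python 3.11.15 with scipy 1.17.1, pandas 2.3.3, numpy 2.4.6 and matplotlib 3.10.9. Exact (Clopper-Pearson) 95% intervals took the mean times 2 libraries as the count and cover counting error only. The quasi-likelihood test of edgeR needs libraries and was not run, so no p-value is given. Protein features were not analysed here. Transcript length and GC content come from GENCODE 29, for the transcript of each gene with most counts among those found there. For CCNA2 and CENPE, whose leading transcripts were assembled, this was another transcript. Promoters come from RefSeq. Simulated gene sums with known fold changes were used to test the scaling and the fold change of siYAP against NC. The other steps were not tested in this way.

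The members and lists were chosen with earlier results of these data known. Genes were named by a rule: the 6 highest and 6 lowest members per comparison, the 6 highest and 4 lowest in FPKM in NC, CDK1, CCNB1, PLK1, AURKB, MKI67, TOP2A and FOXM1, the 3 highest and 3 lowest of the other mitosis genes and of the G1/S genes per comparison, and the 6 transcripts per comparison with the largest change whose gene sum stayed within 0.5. A gene that this rule would name is not reported here. Other members and genes with values in the text were added to describe their role or a count. The printed promoters were not chosen by this rule. Alternatives were DESeq2 1.42.0 size factors, total counts, a prior count of 0.5, other minimums, summed FPKM with 0.1 added, Ensembl transcripts or the leading transcript alone, and a fold of 1. Subtraction of class medians over 25 classes of GC content and length was added after a relation with GC content had been seen.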

Additional observations from a re-analysis of the deposited data

How the results depend on the processing

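No paired analysis was possible because each group has only its mean of 2 libraries in the deposited tables, and for the same reason leaving out each replicate was not run. The limits of these data are the missing spread between libraries and an NC shared by the comparisons. Of 121 medians and counts under the alternatives, 112 stayed within counting error (counts within 1.5 times) and 9 moved. Of 1242 values of single genes, 210 moved by more than counting error. No value past 0.5 changed sign. The median of the 46 genes in GAS5 against siYAP was 0.45 with Ensembl transcripts only and 0.42 after subtraction of GC and length class medians, and in siYAP against NC it was -0.42 after that subtraction. The median of the other mitosis genes was 0.30 in GAS5 against siYAP after the subtraction, and -0.41 in siYAP against NC with the ratio of summed FPKM. At a fold of at least 1, 1 gene was lower in siYAP than in NC and 0 were higher in GAS5 than in siYAP. In GAS5 against NC, 1 gene (CENPE, -0.53) passed 0.5 with Ensembl transcripts only and 2 (NEK2, -0.62, and NUF2, -0.55) with the leading transcript only. Other scaling moved the median of all genes by less than 0.1. The cause of these changes was not tested, beyond what each setting leaves out by construction.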
